A study of Mus musculus with 52 samples.

Results

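The immediate early genes described here are 10 of the 24421 gene symbols in the count data: the AP-1 genes Fos, Fosb, Fosl1, Jun and Junb, the zinc finger genes Egr1 and Egr2, the early response genes Ier2 and Ier3, and Atf3. They were chosen by name, with earlier results of these data known, by a rule that uses no measured value, and all 10 were among the 12544 genes that passed the expression filter over all libraries. They were measured by RNA sequencing in 52 libraries of Cilia-APEX-IMCD3 cells, a mouse inner medullary collecting duct line whose cilia carry a peroxidase tag. The study asked how human disease alleles of Wdr34 and Wdr60, the intermediate chains of the dynein-2 motor that drives retrograde transport in cilia, affect gene expression with and without cilia.

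Each of 13 clones (a line sequenced in both states would count once per state) gave 4 libraries, which the study describes as technical replicates, so p-values from libraries measure the spread among libraries of a few clones. Mutant clones were single-cell-derived lines carrying homozygous missense alleles made with the cytosine base editor BE4-Gam, and control clones had received the editor and a guide vector without a target. The paper also reports unintended heterozygous edits. These are a second missense change in the Wdr34 clone with a glycine-to-serine change, and a synonymous change in the Wdr60 clone. Non-ciliated cells comprised 2 mutant clones, Wdr34 with an arginine-to-tryptophan change and Wdr60 with an alanine-to-valine change, and the 4 control clones AB, 1, 2 and 3. Ciliated cells comprised 3 mutant clones, labelled Wdr34-1, Wdr34-3 and Wdr60, and the 4 control clones D8, H12, A4 and G7. The paper compared its ciliated mutants with 3 control clones, which its text does not name, whereas all 4 are used here. Which allele each ciliated Wdr34 clone carries is not in the labels, and missense edits leave no mark in gene counts by which a clone could be checked. The study induced cilia by serum starvation, whereas the labels give 10% serum for every library. The study's methods describe 3 mutant and 4 control clones in all, so the Wdr60 line, 1 Wdr34 line and control lines may each have been measured in both states. The labels do not tie clones across states, so such lines were not paired, and tests between states treat them as separate. Among controls state and clone cannot be told apart. According to the paper, the Wdr34 clone with the glycine-to-serine change became available only once the non-ciliated libraries had been sequenced. At least part of the ciliated set was thus sequenced later, and state and time of sequencing cannot be told apart either.

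Immediate early genes are transcribed within minutes of a stimulus such as serum, growth factors or mechanical disturbance, without the need for new protein synthesis, and their RNAs are short-lived. Kinases of the MAP kinase cascades activate serum response factor with its Elk partners and CREB at their promoters. FOS proteins pair with JUN proteins to form AP-1, EGR proteins bind GC-rich sites, and phosphatases of the DUSP family and RNA-binding proteins of the ZFP36 family end the response. Quiescent, serum-starved epithelial cells usually hold low levels of Fos.

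Promoter sequences are shown for the members that hold a match to TGACG, the core of the CREB and ATF site. Of the motifs searched, it was the one found in the most members. Whether such sites have a part in any difference between states or clones was not tested. RefSeq promoters on GRCm38.p6, of which the 250 bases before the annotated start were searched, matched 7 of the 10 members (Fos, Fosb, Jun, Junb, Egr2, Ier3 and Atf3). In the sequences below, written 5′ to 3′ on the strand of the gene, capitals mark each match to this core on either strand, which reads as its reverse complement in Atf3, and the TATA box of Fos. They lie at chr12:85473640-85473889 on the plus strand for Fos, and on the minus strand at chr7:19310046-19310295 for Fosb, chr8:84978749-84978998 for Junb and chr1:191183334-191183583 for Atf3.
Fos: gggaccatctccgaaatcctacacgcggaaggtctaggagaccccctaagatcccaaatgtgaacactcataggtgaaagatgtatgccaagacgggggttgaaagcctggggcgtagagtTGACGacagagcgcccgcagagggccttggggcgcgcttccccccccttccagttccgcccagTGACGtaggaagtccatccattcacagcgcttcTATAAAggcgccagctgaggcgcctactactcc
Fosb: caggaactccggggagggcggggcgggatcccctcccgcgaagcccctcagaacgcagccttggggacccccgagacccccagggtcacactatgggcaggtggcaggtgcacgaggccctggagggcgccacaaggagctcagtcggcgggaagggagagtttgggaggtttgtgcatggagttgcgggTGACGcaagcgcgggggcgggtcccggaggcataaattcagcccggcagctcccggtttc
Junb: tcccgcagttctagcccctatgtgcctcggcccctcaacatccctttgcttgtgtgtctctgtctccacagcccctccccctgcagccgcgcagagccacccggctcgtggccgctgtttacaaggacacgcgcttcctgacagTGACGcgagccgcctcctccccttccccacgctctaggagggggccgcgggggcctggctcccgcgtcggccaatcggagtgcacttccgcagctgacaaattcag
Atf3: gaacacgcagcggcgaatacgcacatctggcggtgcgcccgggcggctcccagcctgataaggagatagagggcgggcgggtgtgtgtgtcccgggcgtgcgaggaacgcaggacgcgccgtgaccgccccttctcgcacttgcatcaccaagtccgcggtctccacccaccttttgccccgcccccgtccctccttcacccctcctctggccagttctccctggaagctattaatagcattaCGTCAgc

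On either strand, TGACG was found in 4 of the 7 member promoters and in 17.8% of all 32851 promoters of this length. Fos held 2 matches. The TATA box, searched as TATAAA, was found in 1 of the 7, that of Fos, and in 12.4% of all promoters. The full palindromic site TGACGTCA, which contains the core, was found in 0 of the 7 and in 1.55% of all promoters. The AP-1 site, searched as TGANTCA, was likewise found in 0 of the 7 and in 6.75% of all. The CArG box, the site of serum response factor, was found in 0 of the 7 and in 1.47% of all. These counts cover only the 250 bases before the start. Sites farther upstream, and the promoters of Egr1, Ier2 and Fosl1, were not searched, so whether the members hold such sites elsewhere is not known from them. On GRCm38, GENCODE M21 places the genes of these promoters at 85473890 to 85477273 on chromosome 12 for Fos, 19302696 to 19310051 on chromosome 7 for Fosb, 84974484 to 84978718 on chromosome 8 for Junb and 191170296 to 191218039 on chromosome 1 for Atf3, all protein-coding. The start used for Atf3 lies 34706 bases inside the outermost start that GENCODE M21 gives for this gene.

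Library totals ranged from 14816218 to 28084979 counts, with 13476 to 14637 genes detected per library. All 52 libraries were nearest to their own clone in genes outside the lists, and 0 of 78 library pairs within clones were identical. In those genes 5 libraries deviated from their clone by more than 1.5 times the median deviation of their state, namely AB library 1 (2.72 times), non-ciliated Wdr60 library 1 (2.34), ciliated Wdr60 library 2 (1.89), A4 library 1 (1.78) and G7 library 4 (1.78), and results that rest on them are given below. The epithelial lineage genes Pax2, Pax8, Hoxb7, Cdh16 and Tfcp2l1 were detected in every library, while the principal cell genes Aqp2 and Avpr2 had 0 counts in 51 and 30 libraries. Control clones G7 (ciliated) and 2 (non-ciliated) stood apart, with mean Cdh1 of 14.4 and 4.22 CPM (counts scaled to a common library size) against 241 to 649 in the other clones, mean Epcam of 13.5 and 2.86 against 183 to 837, and mean Lrp2, a proximal tubule gene, of 447 and 272. After its own clone, every library of G7 was nearest to clone 2 and every library of clone 2 to G7. Whether these clones are the same line is not in the labels. The ciliated mutant Wdr34-3 also stood apart, with mean Krt8 of 76.8 and Krt18 of 148 CPM and with Dcn, a fibroblast gene, at 29.2 CPM against at most 1.01 elsewhere, and its fibroblast list summed to 31.3 CPM against 1.38 to 5.57 in the other clones. The fibroblast genes Thy1 and Col1a2 had 0 counts in 52 and 49 libraries. H12 had mean Umod, a thick ascending limb gene, of 9.74 CPM against at most 1.33 elsewhere. The proximal tubule genes Slc34a1 and Slc22a6 and the T-cell gene Cd3e had 0 counts in every library.

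The plot of CPM by library shows the pattern that the rest of the text describes. Among ciliated clones the members spread widely, with D8 and A4 high and H12 and G7 low, all of them controls. Among non-ciliated clones they spread less, except Egr2, whose clone means spanned 4.76 times there and 3.89 times among ciliated clones.

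**Figure D1:**
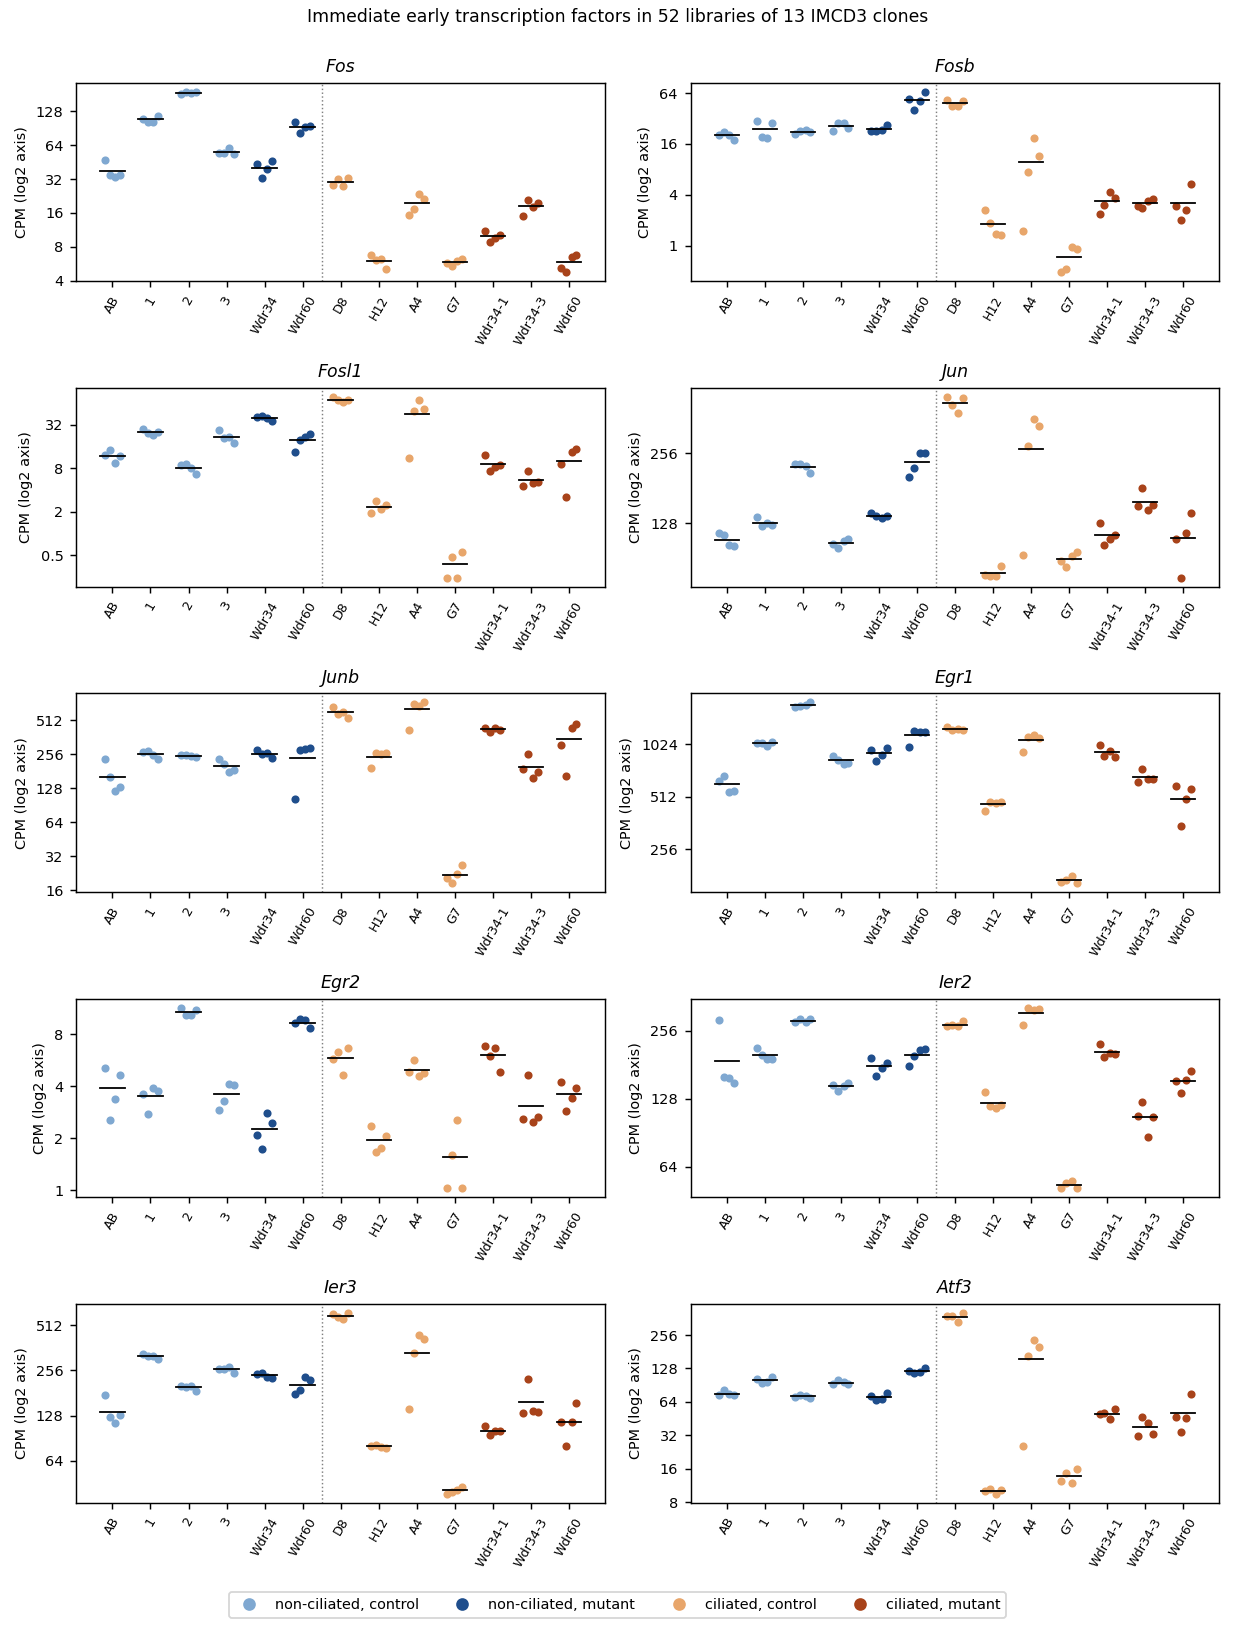
CPM of each member in each of the 52 libraries (log axis), by clone, state and genotype. The 4 libraries of a clone lie close together for most members, the 28 ciliated libraries of Fos (4.76 to 32.5 CPM) lie below the 24 non-ciliated ones (32.6 to 192), and A4 library 1 lies well below the other A4 libraries for Fosb, Fosl1, Jun, Ier3 and Atf3.

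Fos, the founding FOS partner of AP-1, was the member most clearly separated by state. Its level in the 4 libraries was 28.4, 32.3, 27.7 and 32.5 CPM in D8 and 15.4, 17.5, 23.5 and 21.3 in A4. The other ciliated controls were lower, H12 with 6.72, 6.07, 6.25 and 5.06 and G7 with 5.80, 5.43, 5.97 and 6.19. In the ciliated mutants it was 11.1, 8.90, 9.63 and 10.2 in Wdr34-1, 15.1, 20.9, 18.0 and 19.6 in Wdr34-3, and 5.22, 4.76, 6.57 and 6.83 in Wdr60. Mutant libraries overlapped those of the controls, and Wdr60 held both the lowest library and, by a narrow margin over G7, the lowest clone mean of the state. In non-ciliated controls Fos was 47.5, 34.8, 33.6 and 35.1 CPM in AB, 111, 103, 103 and 117 in clone 1, 183, 192, 187 and 191 in clone 2, and 54.5, 54.5, 60.1 and 53.9 in clone 3. Non-ciliated mutants had 43.5, 32.6, 39.5 and 46.0 in Wdr34 and 102, 82.1, 92.5 and 94.4 in Wdr60. Every ciliated clone mean (5.84 to 30.2 CPM) was below every non-ciliated clone mean (37.8 to 188). Separation of clone means by state was common, as 12.2% of genes were wholly lower in ciliated than in non-ciliated controls. Between mutant groups the means of 54.6% of genes did not overlap in either direction. The share of genes separated over all 13 clones was not counted. In bulk RNA, fewer expressing cells and less RNA per cell cannot be told apart.

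Fosb, a FOS protein that also occurs as the long-lived splice form ΔFosB, varied most among the ciliated controls. It reached 52.5, 44.8, 44.8 and 51.8 CPM in D8 but 2.63, 1.87, 1.37 and 1.36 in H12 and 0.488, 0.537, 0.975 and 0.924 in G7, where 8 to 27 reads were counted. A4 gave 1.49, 7.56, 18.6 and 11.5. The 3 ciliated mutants were alike at 3.27 ± 0.0971 CPM (SD of clone means, n = 3), between the high and the low controls. In non-ciliated cells the controls were close together, at 23.2 ± 2.50 CPM (SD, n = 4), Wdr34 had 22.9, 22.9, 23.7 and 26.6, and Wdr60 had 54.8, 40.7, 51.4 and 66.4, above every control library.

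Fosl1, which encodes the FOS protein FRA-1, had the widest range of all members among ciliated clones. D8 had 76.9, 69.7, 66.6 and 70.5 CPM and A4 had 11.1, 48.6, 69.1 and 52.7. Levels were far lower in H12, with 1.89, 2.78, 2.20 and 2.45, and in G7, with 0.244, 0.477, 0.244 and 0.547 (4 to 16 reads). The clone mean of D8 was 188 times that of G7. Ciliated mutants had 8.27 ± 2.44 CPM (SD, n = 3), again between the controls. In non-ciliated cells the highest clone was the mutant Wdr34, with 41.0, 41.7, 39.5 and 35.7 CPM, above all 16 control libraries (6.59 to 27.8). An exon of Fosl1 overlaps Ccdc85b on the opposite strand, whose clone means were 37.8 to 75.5 CPM, and without a stated strand setting reads of these genes cannot be told apart.

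Of the JUN genes, Jun encodes the main AP-1 partner of FOS. It was 448, 412, 384 and 445 CPM in D8, 93.1, 277, 358 and 337 in A4, and 75.7 to 95.9 in the libraries of H12 and G7. Ciliated mutants had 127 ± 26.4 CPM (SD, n = 3), non-ciliated controls 142 ± 55.8 (n = 4) and non-ciliated mutants 186 ± 68.1 (n = 2). Junb, which encodes a JUN protein with weaker activation, was high in A4 (423, 716, 688 and 735 CPM) and D8 (673, 581, 606 and 537), and low in G7 alone (20.3, 18.5, 22.3 and 26.8). H12, low for most members, had 192, 262, 258 and 259, which overlapped the 158 to 258 of Wdr34-3. Non-ciliated clones were within 1.60 times of each other for Junb (162 to 259 CPM), and every neighbouring pair in their order overlapped in libraries. Exons of Junb overlap Prdx2 on the opposite strand (clone means of 209 to 309 CPM), and exons of Jun overlap the antisense gene Junos, so these counts carry the same uncertainty.

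Egr1, a growth-factor-induced zinc finger activator, ranged from 164 to 179 CPM in the libraries of G7 and from 1241 to 1285 in those of D8. H12 had 422, 480, 473 and 476 CPM, and the ciliated mutants had 696 ± 214 (SD, n = 3). Non-ciliated clones ran from AB (547 to 676 CPM) to clone 2 (1684 to 1782). Egr1 had the highest level per length of the members, with a median over clones of 203 CPM per kb of exon, followed by Ier3 with 174 and Ier2 with 123. Egr2, best known for Schwann cell myelination, had the lowest, 1.06 CPM per kb. Its libraries held 17 to 209 reads, and its highest clones were 2 (10.3 to 11.4 CPM) and Wdr60 (8.69 to 9.81) in non-ciliated cells.

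Ier2, a small nuclear regulator, was 51.2 to 55.2 CPM in G7, 116 to 136 in H12 and 267 to 323 in D8 and A4, and the mutants Wdr34-1 (196 to 223), Wdr60 (135 to 170) and Wdr34-3 (86.8 to 124) lay between. Ier3, which encodes a regulator of ERK signalling and cell survival rather than a DNA-binding protein, was 607, 579, 559 and 615 CPM in D8, 142, 333, 444 and 417 in A4, 78.5 to 81.6 in H12 and 38.7 to 42.9 in G7. The ciliated mutants had 126 ± 29.1 (SD, n = 3) and the non-ciliated clones 136 to 318. Ier3 in D8 was thus above every library of the other 12 clones.

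Atf3, a stress-induced repressor of the ATF and CREB family, was 379, 379, 339 and 403 CPM in D8 and 25.8, 166, 232 and 202 in A4. H12 had 10.0, 10.4, 9.52 and 10.2 CPM and G7 12.3, 14.5, 11.9 and 15.9. The mutants (31.5 to 75.6 CPM in their 12 libraries) lay above the low pair of controls and below D8. Non-ciliated clones were within 1.71 times of each other (71.0 to 122 CPM), with Wdr60 highest.

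Among the 7 ciliated clones, D8 was highest for 7 members and among the highest 2 for all 10. G7 was lowest for 7 and among the lowest 2 for all 10. A4 was among the highest 2 for 9 and H12 among the lowest 2 for 7. The members summed to 3671 CPM in D8 and 2860 in A4, but to 1009 in H12 and 397 in G7, against 1299 to 1848 in the mutants. Some epithelial markers ran in the same order over these controls, with mean Krt8 of 951 CPM in D8 and 783 in A4, against 372 in H12 and 26.3 in G7. Mean Krt18 followed the same order, 1239, 1153, 529.7 and 67.5 CPM. Others set G7 apart alone, with Cdh1 at 617 CPM in D8, 649 in A4 and 629 in H12, against 14.4 in G7. In non-ciliated cells clone 2, low in all 4 epithelial markers, had the highest sum of its state (2980). The part of these marker differences in the members' levels was not tested.

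**Figure D2:**
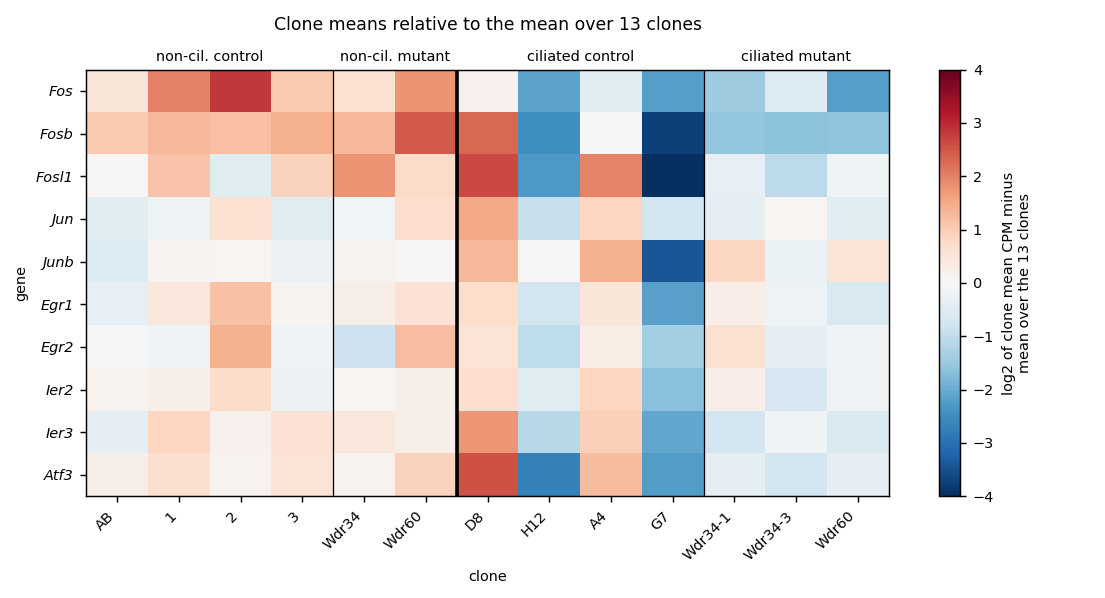
Log2 of the clone mean CPM of each member, minus its mean over the 13 clones, with clones in columns grouped by state and genotype. D8 and A4 are high and H12 and G7 low among the ciliated controls, and Fos is lower in ciliated than in non-ciliated clones.

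All 10 members differed among the 7 ciliated clones and all 10 among the 6 non-ciliated clones beyond the spread of their libraries (edgeR F tests, adjusted p at most 1.94e-08 and 0.0416). Such differences were the rule, since 90.2% and 87.4% of all genes passed this test. Among controls alone all 10 passed in ciliated cells (85.4% of all genes) and 9 in non-ciliated cells (80.5%), where Fosb did not (adjusted p = 0.101). The SD of clone mean log2 CPM had a median of 1.13 over the members and 0.30 over all genes in ciliated cells, and 0.50 and 0.27 in non-ciliated cells. Fosl1 (SD 2.41) exceeded 99.1% of genes in ciliated cells, Fosb (1.84) 97.0%, Atf3 (1.78) 96.8% and Junb (1.66) 96.2%. In non-ciliated cells Fos (0.91) exceeded 91.3%, while Junb (0.28) exceeded 52.7%.

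**Figure D3:**
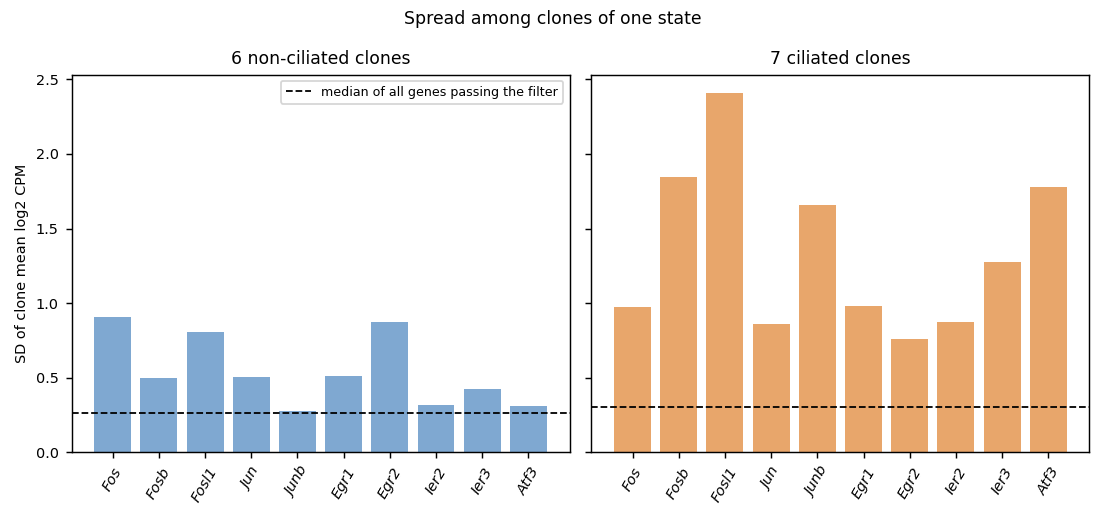
SD over clones of the clone mean log2 CPM for each member in each state, with the median over all genes that passed the filter as a dashed line. In ciliated clones all 10 bars are above 0.75, and Fosl1 reaches 2.41, while in non-ciliated clones the bars run from 0.28 (Junb) to 0.91 (Fos).

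Between ciliated mutants and controls, 0 of 10 members were called (edgeR, adjusted p under 0.05 with a size of at least 1 on the log2 scale), where 0.644% of 11950 genes were. An unadjusted p under 0.05 was reached by 5 members and by 2296 of all 11950 genes, DESeq2 called 1 (Fosb) and voomLmFit called 0. Fosb had a log2 fold change of −2.21 (SE 0.69, adjusted p = 0.0718), Fosl1 of −1.84 (SE 0.74, 0.163), Atf3 of −1.58 (SE 0.62, 0.154), Ier3 of −1.05 (SE 0.44, 0.179) and Jun of −0.75 (SE 0.32, 0.191). The members' median was −0.59, against −0.01 over all genes. Clone means overlapped for all 10 members, while 1.99% of all genes had groups that did not overlap, and exact permutation p over clones was 0.486 to 1, where 0.0286 is the smallest possible.

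These values rest on single control clones. Without H12, 5 members were called (Fosb, Fosl1, Jun, Ier3 and Atf3, all lower in mutants), and without G7, 4 (the same without Jun). Without Wdr34-3, the mutant clone with Dcn, 0 were called. Without D8, 0 were called, and the log2 fold change of Fosb was −0.33, that of Fosl1 −0.95 and that of Atf3 −0.37. Means of log2 CPM over clones, which give a high clone less weight, put Fosb at −0.55, Atf3 at −0.14 and Fosl1 at 0.04. Each ciliated mutant clone against the 4 controls likewise gave 0 called members, against 0.679% of genes for Wdr34-1, 5.8% for Wdr34-3 and 1.93% for Wdr60, with log2 fold changes of Fosb of −2.16, −2.26 and −2.21. The 3 comparisons share the 16 ciliated control libraries. Over the 5 single-clone comparisons of both states, the count of called members rose from 2 to 6 without G7 and to 4 without AB or clone 2.

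Between non-ciliated mutants and controls, 0 of 10 members were called, where 3.06% of genes were. Unadjusted p was under 0.05 for 3 members and for 3637 of all 12012 genes, and DESeq2 and voomLmFit each called 0. Fosb (0.74, SE 0.16, adjusted p = 0.00403) and Fosl1 (0.83, SE 0.26, 0.0317) were higher in mutants at an adjusted p under 0.05 but below the fold limit. Exact permutation p over clones was 0.133 for Fosb and 0.267 for Fosl1, with 0.0667 the smallest possible, clone means overlapped for all 10 members, and 12.9% of genes did not overlap. The clones behind these values differed. Wdr60 alone had Fosb higher than the controls (1.20, SE 0.12, adjusted p = 2.26e-06, with 3.41% of genes called), and Wdr34 alone had Fosl1 higher (1.25, SE 0.30, adjusted p = 0.0115, with 2.24% called), and each was the 1 member called for its clone. Jun (0.72) and Atf3 (0.50) in Wdr60 also had an adjusted p under 0.05 below the fold limit. Each mutant arm here is the 4 libraries of 1 clone, so these SE and p measure the spread among libraries only. Fosb in Wdr34 was 0.06 and Fosl1 in Wdr60 was 0.23, and the difference between the clones was not tested. The call of Fosl1 in Wdr34 was lost in 3 of 10 alternatives, those without replicate 2, 3 or 4 (adjusted p 0.00193 to 0.094 over the alternatives). Without control clone 1, 1 member was called for both mutants together, Fosl1.

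**Figure D4:**
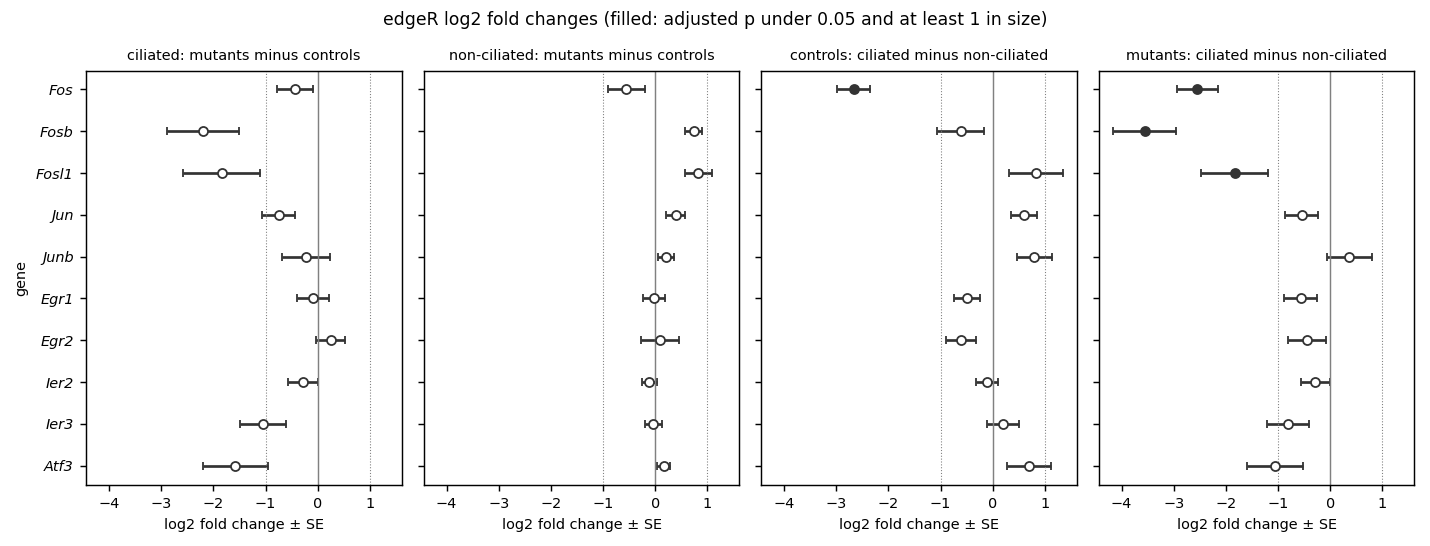
Log2 fold change of each member with its SE from edgeR, with filled points for called members. Mutants are set against controls within each state, and ciliated against non-ciliated clones within each genotype. Fos is near −2.6 in both comparisons of state, and Fosb is lower in ciliated than in non-ciliated mutants (−3.56) but was not called by edgeR between control groups (−0.61), where voomLmFit with the clone as a block called it (−2.51). With libraries summed by clone Fosb was not called between control groups (exact permutation p over clones 0.143).

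Between ciliated and non-ciliated controls, 1 of 10 members was called, where 12.2% of genes were. Fos fell by 2.67 on the log2 scale (SE 0.32, adjusted p = 6.57e-10), 15.4 ± 11.8 against 97.5 ± 67.4 CPM (SD, n = 4 clones each), with an exact permutation p of 0.0286, the smallest possible. It was the only member without overlap of clone means, wholly lower in ciliated controls, as were 12.2% of genes (22.6% in either direction), and it stayed called in all 24 alternatives. Junb (0.79, adjusted p = 0.0373) and Jun (0.59, 0.0319) had an adjusted p under 0.05 below the fold limit. Fosb (−0.61, 0.233), Fosl1 (0.83, 0.153) and Atf3 (0.69, 0.151) did not. With voomLmFit and the clone as a block, Fosb was at −2.51 and called with Fos. With libraries summed by clone Fosb was not called, its clone means overlapped, and its exact permutation p over clones was 0.143. In the voomLmFit fit Fosl1 was at −1.26, Atf3 at −0.84 and Junb at −0.0043. The direction thus turned for Fosl1, Atf3 and Junb, as it did in means of log2 CPM over clones (−1.03, −0.77 and −0.0040). Ier3 also turned, from 0.20 to −0.48 with voomLmFit and −0.47 over clones. Calls added by leaving out a clone ran in opposite directions. Without D8, Fosb was called as lower in ciliated controls (−2.50), giving 2 called members with Fos. Without H12, Fosl1 and Atf3 (1.07) were called as higher, giving 3, and without G7, Fosl1 (1.22), Junb (1.18) and Atf3 were, giving 4.

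Between ciliated and non-ciliated mutants, 3 of 10 members were called, all lower in ciliated cells, where 17.9% of genes were called. Fos fell by 2.55 (SE 0.39, adjusted p = 2.97e-07), Fosb by 3.56 (SE 0.60, 1.6e-06) and Fosl1 by 1.84 (SE 0.65, 0.0132). Atf3 was at −1.06 (0.0825) and Ier3 at −0.81 (0.073). Clone means of 5 members did not overlap (Fos, Fosb, Fosl1, Ier3 and Atf3, all lower), a share close to the 54.6% of all genes, and the smallest exact permutation p for 3 against 2 clones is 0.1. The call of Fosl1 was lost in 5 of 24 alternatives, among them without non-ciliated Wdr34 (−1.24) and without ciliated Wdr34-3, and all 3 calls were lost with the libraries of each clone summed (adjusted p = 0.0631 for Fos).

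The mutant effect differed between the states for 1 member, where 1.19% of genes were called. For Fosb the difference was −2.95 (SE 0.74, adjusted p = 0.0236), from −2.21 in ciliated and 0.74 in non-ciliated cells. This call took libraries as samples, and it was lost where the clone was the unit, with voomLmFit and the clone as a block (−0.88) and with libraries summed by clone. In all it was lost in 10 of 24 alternatives, the others being without D8 (−1.06), Wdr34-3, non-ciliated Wdr60 or clone 2 and without each replicate number, which left 0 called members, whereas 4 were called without H12 and 5 without G7. Fosl1 (−2.66, 0.0784), Atf3 (−1.74, 0.193), Jun (−1.14, 0.131) and Ier3 (−1.01, 0.352) were not called.

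Other genes of the response, from lists chosen with earlier results known, were counted by the same calls. In ciliated mutants against controls, 0 of the 26 other immediate early genes, 9 AP-1 partners, 23 upstream kinases and serum response factors, 17 feedback regulators, 12 integrated stress response genes and 8 heat shock genes were called. Their medians were −0.47, −0.23, −0.11, −0.59, −0.09 and −0.35, against −0.01 over all genes. In clone sums, the mutants lay below D8 and A4 but above H12 and G7 for feedback regulators (1560 to 1671 CPM). The same held for other immediate early genes (2140 to 2790 CPM). In non-ciliated cells, where 3.06% of all genes were called, the 1 called gene of the lists named above was Klf2, a zinc finger gene (1.04, adjusted p = 0.0015). Between control groups, where 12.2% of all genes were called, 5 of 28 other immediate early genes were called, with Cyr61, a secreted matrix protein gene, at −2.16, Plk2, a kinase gene, at −1.33, Egr3 at −1.28 and the clock gene Per1 at 1.11. The AP-1 partners Maff (1.70), Batf3 (1.57) and Mafk (1.03) were called as higher in ciliated controls, as were the feedback genes Dusp4 (1.69), an ERK phosphatase, and Nab2 (1.02), an EGR repressor. These lists split the ciliated controls. Feedback regulators summed to 3784 CPM in D8 and 2834 in A4, but to 1241 in H12 and 1161 in G7. Non-ciliated controls had 1564 to 2323. AP-1 partners summed to 3738, 3259, 1675 and 1890 CPM in the same order, against 1964 to 2169 in non-ciliated controls. Heat shock genes were lower for 4 of 8, led by the chaperone genes Hsph1 (−2.20) and Hspe1 (−1.54). Of 12 integrated stress response genes, Cebpb was higher (1.25) and Hspa5 lower (−1.04), and 0 of 23 upstream genes were called. Between mutant groups, where 17.9% of all genes were called, 11 of 28 other immediate early genes were lower in ciliated cells, led by the kinase gene Sgk1 (−2.39), Cyr61 (−2.30), Plk2 (−1.97) and Myc (−1.38), and Dusp1 (−1.67) and Dusp5 (−1.38) were the 2 feedback genes called, both lower. Heat shock genes were lower for 5 of 8, led by Hsph1 (−2.34), Hspb1 (−1.95), Hspe1 (−1.71) and Hsp90aa1 (−1.43). Of 12 integrated stress response genes, Ddit3 was higher (1.281), and Asns (−1.40), Trib3 (−1.14) and Hspa5 (−1.05) were lower. Elk3, a partner of serum response factor, was the 1 upstream gene called (−1.58), and 0 of 10 AP-1 partners were. Of 10 cell cycle genes, 0 were called in any of these comparisons.

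The deviating libraries were compared with the rest of their clones in these genes. Each test sets 1 library against the other 3 of its clone, not conditions, and its p assumes that the lone library varies like the other libraries of the state. A4 library 1 was below the other 3 libraries of its clone for 9 members, and 5 were called (1.97% of all genes). Fosb fell by 3.06 (adjusted p = 0.000365), Atf3 by 2.94 (1.4e-06), Fosl1 by 2.34 (0.00154), Jun by 1.78 (1.63e-05) and Ier3 by 1.47 (0.000643). In level, the mean of the other libraries was 8.42 times that of library 1 for Fosb, 7.74 for Atf3, 5.12 for Fosl1, 3.48 for Jun and 2.79 for Ier3, whereas Egr1 (1.22) and Egr2 (1.04) were close. In the same library 9 of 17 feedback regulators and 10 of 26 other immediate early genes were also lower, and 0 of 10 cell cycle genes were called.

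Ciliated Wdr60 library 2 was below its clone for all 10 members, with Fosl1 (fell by 1.99, adjusted p = 0.0333) and Junb (fell by 1.33, 0.0127) called, against 2.42% of genes. Non-ciliated Wdr60 library 1 had Junb at 103 CPM against 280 to 287, a fall of 1.49 (adjusted p = 7.64e-05), the 1 member called (3.53% of genes), while Fosb and Atf3 were inside the range of the other libraries. AB library 1 was above its clone for Fos, Junb, Ier2, Ier3, Egr2 and Jun, with Ier2 at 285 CPM against 150 to 159, but 0 members passed the fold limit (6.15% of genes). G7 library 4, the deepest, had 0 called members and 0 called genes among 11950 (percent called 0), with 4008 genes and 0 members at an unadjusted p under 0.05. Without all 5 libraries, the counts of called members in the 5 comparisons of groups were the same, 0, 0, 1, 3 and 1.

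**Figure D5:**
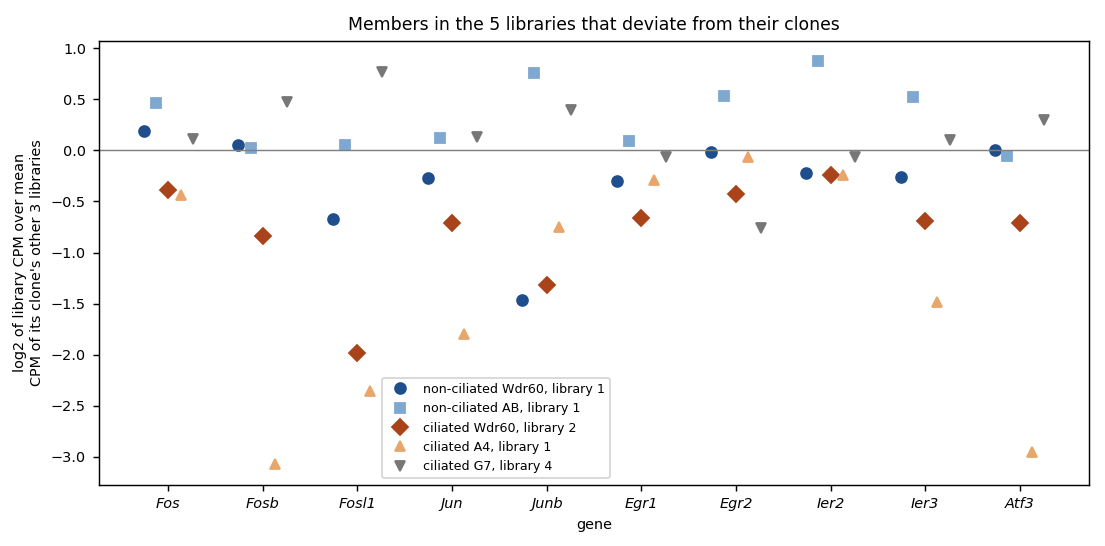
Log2 ratio of the CPM in each of the 5 deviating libraries to the mean CPM of the other 3 libraries of its clone, by member. A4 library 1 is lowest for Fosb and Atf3, AB library 1 is mostly above 0, and G7 library 4 lies between Egr2 (0.591 times) and Fosl1 (1.70 times).

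Within clones, the SD of log2 CPM over replicate libraries had a median of 0.35 over the members and 0.18 over all genes in ciliated cells, and of 0.17 and 0.16 in non-ciliated cells. Deviations from the clone mean moved together, with a positive Pearson r for all 45 pairs of members over 52 libraries (median 0.55), and for 44 without the 5 deviating libraries (median 0.47). The highest was Jun with Atf3 (0.93, and 0.84 without those libraries). These points share clones, depth and library preparation, and r is a description. The share of positive pairs over all genes was not counted. The genes outside the list most like Atf3 over the same 52 libraries were Dusp1 (r = 0.97), the glucose transporter gene Slc2a1 (0.94), Dusp4 (0.94), Zfand2a (0.93) and the heme oxygenase gene Hmox1 (0.93). Those most like Jun included the same Dusp1 (0.96), Slc2a1 (0.95) and Hmox1 (0.95), and Dusp1 was also nearest to Fosb (0.87). Ier3 was nearest to Rhob (0.96) and Fosl1 to Maff (0.89). Fos was nearest to the keratin gene Krt18 (0.78) and Egr2 to Ccdc86 (0.54). These r with genes outside the list are given only over all 52 libraries, the 5 deviating ones included. Among those is A4 library 1, where Fosb, Atf3, Fosl1, Jun and Ier3 were far lower. Its part in these r was not tested.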

How the data were processed

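RNA of 52 libraries from 13 clones was sequenced as paired-end reads. The authors aligned the reads to GRCm38/mm10 with Rsubread and obtained counts for gene symbols from featureCounts (per the labels R 3.4.4, with DESeq2 1.18.1 for their own tests), and deposited raw, unnormalized counts. Strand setting and multi-mapping options are not given in the sources used here.

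Software used here was edgeR 4.0.16, DESeq2 1.42.0 and limma 3.58.1 under R 4.3.3. Genes were kept by filterByExpr, normalized by TMM and tested with edgeR's quasi-likelihood F test, 2-sided, with libraries as samples, and p-values were adjusted by Benjamini-Hochberg over all genes. Calls needed an adjusted p under 0.05 together with a log2 change of 1 or more in size. SE is the fold change divided by the square root of F. CPM were set on 1 TMM scale over the 52 libraries, with a prior count of 2 on the log scale, and clone means of log2 CPM were compared by exact 2-sided permutation. The fits were also run on simulated data, from which no result is given or used here. Members are named throughout. Of other lists, up to 4 called genes with the largest fold change were named, and for likeness the nearest genes of the 5 with the highest r. Members and lists were chosen with earlier results of these data known. Alternatives were DESeq2, RLE size factors, other filters, libraries summed by clone, voomLmFit with the clone as a block, a replicate block, no fold limit, and each clone, replicate or the deviating libraries left out.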

Additional observations from a re-analysis of the deposited data

Results flagged for a closer look

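Within clones, 14 of 130 sets of 4 libraries held 1 library far from the other 3 by Dixon's criterion, in 8 libraries, and 6 of the 14 were in the 5 deviating libraries. Chance flags about 1 in 20 such groups. AB library 1 was high for Fos (47.5 CPM) and Ier2 (285), and AB library 2 for Atf3 (81.4). Non-ciliated Wdr60 library 1 was low for Junb (103) and Egr1 (983), and clone 3 library 3 was high for Fos (60.1). H12 library 1 was low for Junb (192) and Egr1 (422) and high for Ier2 (136), and H12 library 4 was high for Jun (83.4). A4 library 1 was low for Junb (423) and Ier2 (269.5). Wdr34-3 library 2 was high for Egr2 (4.62) and Ier3 (225).

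The mutant effect on Fosb differed between ciliated and non-ciliated cells by −2.95 on the log2 scale (edgeR interaction test with libraries as samples, adjusted p = 0.0236). The call was lost in 10 of 24 alternatives, among them libraries summed by clone and a clone block in voomLmFit (−0.88). Ciliated mutants had 3.27 ± 0.0971 CPM (SD, n = 3 clones) and controls 15.2 ± 22.5 (n = 4), and non-ciliated mutants 38.7 ± 20.7 (n = 2) and controls 23.2 ± 2.50 (n = 4).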

How the results depend on the processing

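Fos between control groups was called in all 24 alternatives. Every value for a single gene was compared with each alternative run for it, so 1 value is counted many times. With a clone or replicate left out, 49 of these comparisons reversed, 29 gained and 14 lost a call, and 644 were the same. Under other settings 14 reversed, 3 gained and 6 lost a call, and 339 were the same. Counts of called members moved as follows. For ciliated mutants, DESeq2 gave 1 (leaving out a clone or replicate 0 to 5). For non-ciliated mutants, no fold limit gave 2 (0 to 1). For states within controls, no fold limit gave 3 and voomLmFit 2 (1 to 4), and within mutants libraries summed by clone gave 0 (2 to 4). For the difference of the mutant effect, DESeq2 gave 2, and summed libraries and voomLmFit 0 each (0 to 5). For single clones, no fold limit gave 4 and DESeq2 5 (1 to 6), and for deviating libraries no fold limit gave 16 in place of 8. The cause of these shifts was not tested.

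Directions reversed with voomLmFit in ciliated mutants for Fosl1 (0.31), Junb (0.48) and Egr1 (0.22), in non-ciliated mutants for Egr1 (0.073), Egr2 (−0.086) and Ier3 (0.029), between control groups for Fosl1 (−1.26), Junb (−0.0043), Ier3 (−0.48) and Atf3 (−0.84), and in the difference of the mutant effect for Junb (0.31), Egr1 (0.16) and Ier2 (0.029). Without the deviating libraries, Egr2 in non-ciliated mutants was −0.046. With each clone or replicate left out, ranges that crossed 0 were, in ciliated mutants, −0.96 to 0.12 for Fos, −0.62 to 0.15 for Junb, −0.42 to 0.28 for Egr1, −0.093 to 0.58 for Egr2 and −0.59 to 0.045 for Ier2. In non-ciliated mutants they were −0.031 to 0.72 for Jun, −0.22 to 0.32 for Egr1, −1.26 to 0.77 for Egr2, −0.25 to 0.085 for Ier2, −0.23 to 0.16 for Ier3 and −0.27 to 0.50 for Atf3. Between control groups they were −0.062 to 1.22 for Fosl1, −0.45 to 0.18 for Ier2, −0.59 to 0.54 for Ier3 and −0.52 to 1.07 for Atf3, and between mutant groups −1.13 to 0.90 for Egr2. In the difference of the mutant effect they were −0.41 to 0.84 for Fos, −0.42 to 0.31 for Egr1, −0.52 to 1.52 for Egr2 and −0.47 to 0.17 for Ier2.

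Replicate numbers mark technical libraries and were not used to pair the clones. In genes outside the lists, the correlation of same-numbered libraries of different clones had a median of 0.01 in both states. In ciliated cells 21.4% of these pairs were over 0.1, with a highest value of 0.615. In non-ciliated cells 10% were, with a highest value of 0.158. Whether some clones share variation by replicate number was not tested. With the replicate block the counts of called members were 0, 0, 1, 3 and 1 in the 5 comparisons of groups and 2 for single clones, as without it. Depth limits Fosb and Fosl1 in G7, with at most 27 and 16 reads in a library.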
